A study of Mus musculus with 14 samples.

Results

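Potassium channel genes were examined in maps of trimethylated histone H3 lysine 4 (H3K4me3) from the prefrontal cortex of stressed and unstressed mice. The set holds the protein-coding mouse genes whose symbols start with Kcn, without Kcnj3, Kcnj5, Kcnj6, Kcnj8 and Kcnj9, which makes 89 of 21883 protein-coding genes in the RefSeq gene table used. By symbol, 40 encode voltage-gated subunits (Kcna to Kcnd, Kcnf, Kcng, Kcnh, Kcnq, Kcns, Kcnv), 8 encode calcium-activated and related large-conductance channels (Kcnma, Kcnn, Kcnt, Kcnu), 14 encode two-pore channels (Kcnk), 10 encode inward rectifiers (Kcnj) and 17 encode auxiliary subunits and regulators (Kcnab, Kcne, Kcnip, Kcnmb, Kcnrg). Each gene was represented by the strongest H3K4me3 summit inside it or within 2 kb of it, by the mean over 13 libraries.

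The animals were adult male C57BL/6J mice, 10 to 12 weeks old. The SDS10 group (5 libraries, named CSDS10 in the labels) met an unfamiliar aggressive CD1 mouse every day for 10 days and lived beside it behind a perforated divider, and the SDS30 group (5 libraries) did so for 30 days. The control group (3 libraries) lived in divided cages and met no aggressor. Mice were also tested for behaviour near the end of the defeat period, and the cortex was dissected 24 hours after the final encounter. Whole prefrontal cortex was used, so a lower value could come from fewer cells of a type or from less of the mark per cell, and these cannot be told apart.

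Potassium channels let potassium leave or enter cells and so set the resting potential of neurons and end their action potentials. Voltage-gated channels open on depolarisation, calcium-activated channels add a hyperpolarisation after spikes, two-pore channels carry the steady leak current, and inward rectifiers hold the membrane near rest and take up potassium in astrocytes. H3K4me3 is laid down on nucleosomes around the start sites of active and poised genes, most of all where the DNA is rich in CG dinucleotides, and wide H3K4me3 regions are known at genes of cell identity.

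The stretch around the start site is given here for the member of each family with the highest summit at its own start, and for members of the same families that had no summit and the fewest CG dinucleotides. Each sequence runs 5′ to 3′ on the gene's strand from 250 bases before to 50 bases after the start, was taken from RefSeq (GRCm38.p6), and carries its CG dinucleotides in capitals.
Kcna2: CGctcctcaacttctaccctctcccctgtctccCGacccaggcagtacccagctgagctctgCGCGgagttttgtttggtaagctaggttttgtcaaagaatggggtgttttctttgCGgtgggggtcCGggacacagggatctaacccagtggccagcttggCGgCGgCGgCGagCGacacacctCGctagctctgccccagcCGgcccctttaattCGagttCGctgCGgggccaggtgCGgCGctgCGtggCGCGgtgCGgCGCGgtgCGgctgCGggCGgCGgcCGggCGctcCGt
Kcnma1: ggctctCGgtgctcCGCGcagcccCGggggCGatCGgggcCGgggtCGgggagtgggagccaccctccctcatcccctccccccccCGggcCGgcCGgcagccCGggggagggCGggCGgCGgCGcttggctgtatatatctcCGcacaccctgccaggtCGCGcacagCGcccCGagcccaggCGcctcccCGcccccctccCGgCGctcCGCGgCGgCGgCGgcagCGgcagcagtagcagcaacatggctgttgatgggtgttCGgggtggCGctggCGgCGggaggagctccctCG
Kcnk5: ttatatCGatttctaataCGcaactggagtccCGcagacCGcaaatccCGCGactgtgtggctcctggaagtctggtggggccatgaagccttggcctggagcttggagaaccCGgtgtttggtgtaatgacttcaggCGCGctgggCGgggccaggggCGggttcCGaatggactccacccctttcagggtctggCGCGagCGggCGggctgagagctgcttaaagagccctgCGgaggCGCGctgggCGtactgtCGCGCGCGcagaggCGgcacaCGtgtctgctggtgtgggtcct
Kcnj2: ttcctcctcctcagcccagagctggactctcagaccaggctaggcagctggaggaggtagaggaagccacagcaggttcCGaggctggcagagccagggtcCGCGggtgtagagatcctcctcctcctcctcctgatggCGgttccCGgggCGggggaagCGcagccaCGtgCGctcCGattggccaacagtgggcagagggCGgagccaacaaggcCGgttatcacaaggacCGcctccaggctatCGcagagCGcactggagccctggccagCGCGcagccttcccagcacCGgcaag
Kcnab2: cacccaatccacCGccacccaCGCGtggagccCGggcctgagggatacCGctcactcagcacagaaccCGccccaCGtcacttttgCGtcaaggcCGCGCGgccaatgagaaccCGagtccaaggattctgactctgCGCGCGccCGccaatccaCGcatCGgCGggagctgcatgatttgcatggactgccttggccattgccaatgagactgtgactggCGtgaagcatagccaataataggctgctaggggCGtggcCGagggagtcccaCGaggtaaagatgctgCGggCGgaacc
Kcna10: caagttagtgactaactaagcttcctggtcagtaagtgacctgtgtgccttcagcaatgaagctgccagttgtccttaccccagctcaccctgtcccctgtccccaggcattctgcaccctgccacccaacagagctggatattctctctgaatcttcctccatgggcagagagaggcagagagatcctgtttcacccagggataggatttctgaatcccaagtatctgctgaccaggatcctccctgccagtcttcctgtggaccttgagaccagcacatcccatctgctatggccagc
Kcnk16: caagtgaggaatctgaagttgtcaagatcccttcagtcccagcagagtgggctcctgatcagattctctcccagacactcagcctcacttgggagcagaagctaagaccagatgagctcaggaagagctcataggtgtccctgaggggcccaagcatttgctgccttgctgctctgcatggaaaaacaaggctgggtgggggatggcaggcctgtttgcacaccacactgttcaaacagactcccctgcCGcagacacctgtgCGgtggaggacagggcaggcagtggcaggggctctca
Kcnj1: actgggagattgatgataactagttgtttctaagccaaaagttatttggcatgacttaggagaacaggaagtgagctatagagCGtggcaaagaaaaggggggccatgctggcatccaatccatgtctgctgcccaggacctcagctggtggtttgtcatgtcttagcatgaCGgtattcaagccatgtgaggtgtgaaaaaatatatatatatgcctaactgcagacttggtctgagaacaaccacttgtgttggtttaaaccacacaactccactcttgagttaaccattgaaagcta
Kcnrg: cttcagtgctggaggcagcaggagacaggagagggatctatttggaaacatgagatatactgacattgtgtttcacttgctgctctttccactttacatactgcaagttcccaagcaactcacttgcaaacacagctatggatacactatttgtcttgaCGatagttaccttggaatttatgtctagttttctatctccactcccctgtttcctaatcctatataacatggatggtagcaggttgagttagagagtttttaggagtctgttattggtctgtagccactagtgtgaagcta

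The first of these, Kcna2, lies at chr3:107101317-107101616 on the plus strand and holds 31 CG dinucleotides. Kcnma1 (chr14:24004156-24004455, minus strand) holds 36, Kcnk5 (chr14:20181733-20182032, minus strand) 26, Kcnj2 (chr11:111065914-111066213, plus strand) 18 and Kcnab2 (chr4:152477500-152477799, minus strand) 25. The 4 windows without a summit have few capitals because they were chosen for that, and other members without a summit hold up to 12. Kcna10 (chr3:107182893-107183192, plus strand) holds 0 CG dinucleotides, Kcnk16 (chr14:20269220-20269519, minus strand) 2, Kcnj1 (chr9:32393735-32394034, plus strand) 2 and Kcnrg (chr14:61607207-61607506, plus strand) 1.

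A summit was found for 73 of the 89 genes (82.0%), against 69.7% of all protein-coding genes. A summit anywhere inside a gene counted, so long genes had more room for one, and gene length was not taken into account. All 8 calcium-activated genes and 37 of the 40 voltage-gated genes had one, as did 11 of 14 two-pore, 7 of 10 inward-rectifier and 10 of 17 auxiliary genes. The 3 voltage-gated genes without a summit were Kcna10, Kcng4 (a modifier subunit) and Kcnv2 (a subunit known from photoreceptors). Among two-pore channels Kcnk7, Kcnk16 (known from pancreatic islets) and Kcnk18 (known from sensory neurons) had none, and among inward rectifiers Kcnj1 (the renal outer medullary channel), Kcnj13 (known from retinal pigment epithelium) and Kcnj15 had none. The auxiliary genes without a summit were Kcne1 (the partner of Kcnq1 in heart and inner ear), Kcne1l, Kcne2, Kcne4, Kcnmb1 (the smooth muscle subunit of the large-conductance calcium-activated channel), Kcnmb3 and Kcnrg. Of the 5 Kcne genes Kcne3 alone had a summit, with a mean of 48.3.

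Levels are the authors' normalised read counts at 1 summit, averaged over the 13 libraries. The median over the 73 members was 62.6, against 97.6 over 15244 protein-coding genes with a summit, whose middle 50% lay between 67.7 and 116.8. Just 3 members stood above the median of all genes, and 44 of 73 stood at or below its lower quartile. The family medians were 62.2 for voltage-gated, 68.9 for calcium-activated, 71.6 for two-pore and 57.9 for inward-rectifier genes, and 63.7 for auxiliary genes. Every family had members from below 50 to above 80, so the spread within a family was far larger than the gaps between family medians. No test of the difference between families was made, because members are not replicates.

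**Figure D1:**
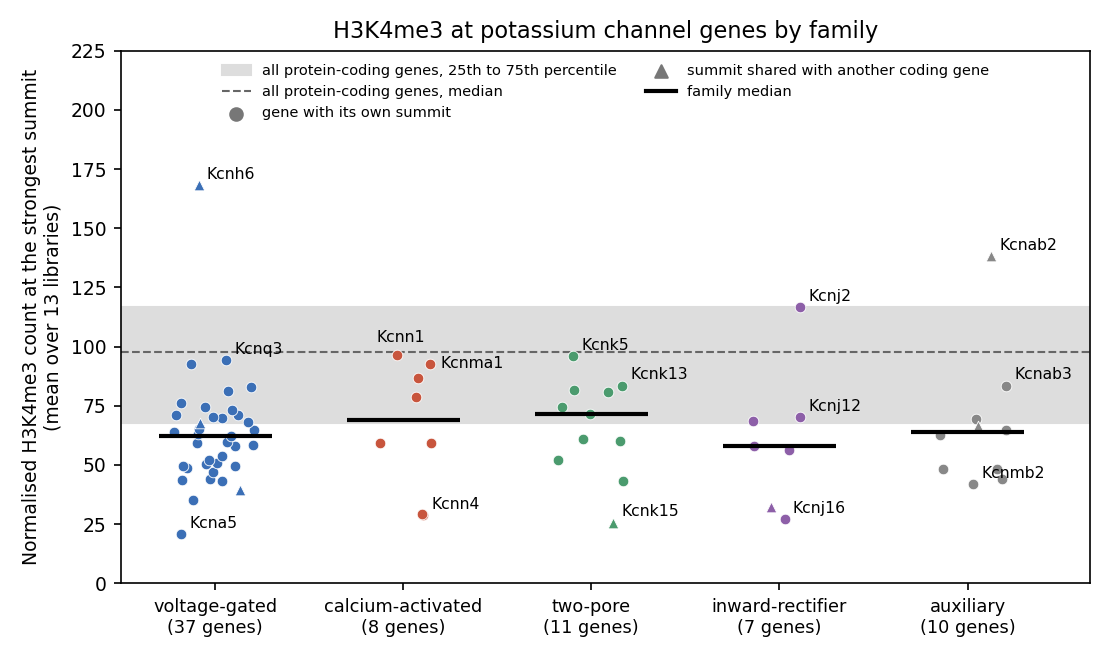
Normalised H3K4me3 count at the strongest summit of each potassium channel gene (vertical axis, mean over 13 libraries) by family; points are genes, triangles are genes whose summit also lies at another coding gene, bars are family medians, and the grey band spans the middle 50% of all protein-coding genes around their dashed median of 97.6. The family medians lie between 57.9 and 71.6, and Kcnh6, Kcnab2 and Kcnj2 alone lie above the dashed line.

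Among voltage-gated genes, Kcnh6, an ether-a-go-go-related gene, had the highest value of all members at 168. That summit (chr11:106037032-106037033) lies 161 bp from the start of the neighbouring gene Dcaf7 and 28885 bp from the start of Kcnh6, whose own start had a summit of 37.2. The 2 voltage-gated genes that followed had summits of their own. Kcnq3, a subunit of the M current that restrains repetitive firing, stood at 94.2, and Kcna2, an axonal delayed-rectifier subunit, at 92.7. In Kcna2 the SDS10 libraries had 103, 100.2, 90.4, 86.4 and 89.4, the SDS30 libraries 103, 89.0, 79.9, 83.8 and 112, and the control libraries 81.1, 105 and 82.5. The 3 groups overlapped over nearly their whole range. The lowest were Kcna5, a subunit best known from heart and smooth muscle, at 20.6 with a single summit, and Kcns1, an electrically silent modifier subunit, at 35.3.

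The neuronal workhorses of the voltage-gated family lay in between. Kcnd2, the A-type channel of dendrites, had a mean of 74.3, and Kcnc2 and Kcnc1, which allow fast spiking, had 73.0 and 59.6. The strongest summit of Kcnq1 (65.0) lies 985 bp from the start of Kcnq1ot1, the imprinted long non-coding RNA inside the gene, and no start for Kcnq1 itself is in the table used.

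The Kcna genes sit in clusters, and neighbours in a cluster differed widely. On chromosome 3, Kcna2 (92.7) and Kcna3 (81.3) both had broad regions of 3218 and 2439 bp from the first to the last summit, while Kcna10 beside them had no summit. On chromosome 6, Kcna1 (68.0, 3154 bp) and Kcna6 (70.0, 1997 bp) lay beside Kcna5, which had 1 summit of 20.6.

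Of the calcium-activated genes, Kcnn1, a small-conductance channel of the afterhyperpolarisation, stood highest at 96.6, with its strongest summit 2386 bp upstream of the nearest given start. Kcnma1, the pore of the large-conductance channel, followed at 92.8, and Kcnn2, the small-conductance channel abundant in hippocampus and cortex, at 86.7. Both sat in regions over 3 kb wide, 3094 bp in Kcnma1 and 3313 bp in Kcnn2, the widest of all members. The sodium-activated relatives Kcnt1 and Kcnt2 each had 59.1. Kcnn4, the intermediate-conductance channel of blood cells and epithelia, had 28.9, and Kcnu1, the sperm channel, had 29.0, each at a single summit.

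The two-pore family was led by Kcnk5, a pH-sensitive channel known from kidney, at 95.9, with its summit 78 bp downstream of the start. Kcnk13 and Kcnk12, the halothane-inhibited pair, followed at 83.5 and 81.5 in regions of 2735 and 2409 bp. Kcnk2, the mechano- and lipid-sensitive leak channel, had 74.4. Kcnk9, an acid-sensitive leak channel, had 43.3. Kcnk15 was lowest at 25.6, at a summit that also lies at Rims4.

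Kcnj2, which encodes the classical strong inward rectifier, had the highest summit among the genes that share theirs with no other coding gene, at 117. Its SDS10 libraries had 121, 104, 119.5, 127 and 125, its SDS30 libraries 135, 93.7, 129, 115 and 127, and its control libraries 109, 107 and 104. The control values were close together, inside the SDS30 range and at the low end of the SDS10 range. The other strong rectifiers, Kcnj12 and Kcnj4, had 70.0 and 68.3. The summit of Kcnj12 lies more than 2 kb from its given start, which had no summit within 1 kb. Kcnj10, the astrocyte channel that clears potassium, had 57.9, and its partner Kcnj16 had 26.9, at 1 of its 4 given starts.

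Among the auxiliary genes, Kcnab2, a cytoplasmic beta subunit of Kcna channels, had 138 at a summit that lies 88 bp from the start of Nphp4 and at -277 bp from its own, where a negative distance is upstream. Kcnab3 had 83.5, Kcnmb4, the neuronal beta subunit of the Kcnma1 channel, had 69.4, and Kcnip3, a calcium sensor that binds Kcnd channels, had 64.8. Kcnmb2 was lowest at 41.9, next to Kcnip1 at 43.8. Shared summits were fewer than in the genome at large. They were found in 7 of 73 members (9.59%), against 27.6% of all coding genes, and beside Kcnh6, Kcnab2 and Kcnk15 they concerned Kcnj14 (with Cyth2), Kcnh4 (with Rab5c), Kcnip2 (with Armh3) and Kcnd1 (with Gripap1).

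Several members had more than 1 given start, and these were marked unequally in some and alike in others. In Kcnab1 the start at chr3:65109014 had a summit of 62.6, the one at chr3:64949212 had 23.6, and the third had none. In Kcnip1 the 2 marked starts had 43.8 and 20.3, in Kcnn1 68.7 and 27.6, and in Kcnip3 64.8 and 50.8. The values were close in Kcnk10, with 60.8 and 58.9. They were also close in Kcns3, with 47.1 and 46.2, and in Kcnq5, an M-current subunit, with 64.6 and 60.02. In Kcns3 and in Kcnq5, however, the starts lie less than 1 kb apart. Summits within 1 kb of a start were read, so these windows overlap and the values do not show separately marked starts. The 4 starts of Kcnc2 lay at 1 summit. Kcnip4 stood apart, with 23.8 and 18.9 at its 2 given starts and its strongest summit, 48.2, lying at -239058 bp from the nearest of them. Over all members, 50 had both a given start and a summit, and in 42 of them (84.0%, against 88.2% of coding genes) the strongest summit lay within 2 kb of a start. It was downstream in 30 and upstream in 12, at a median distance of 227 bp.

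Marked regions were wide at voltage-gated, calcium-activated and two-pore genes, but not in the median inward-rectifier or auxiliary gene. From the first to the last summit, the region around the strongest summit spanned 1222 bp in the median member and 773 bp in the median coding gene. By family the median was 1462 bp in voltage-gated, 1209 bp in calcium-activated and 1194 bp in two-pore genes. It was 773 bp in inward-rectifier and 773.5 bp in auxiliary genes. Regions over 2 kb were seen at 17 of 73 members (23.3%), against 7.72% of coding genes. They fell at 11 of 37 voltage-gated, 2 of 8 calcium-activated, 3 of 11 two-pore, 1 of 7 inward-rectifier and 0 of 10 auxiliary genes. Beside Kcnn2, Kcna2, Kcna1 and Kcnma1 the widest were Kcnk1, a weakly conducting leak channel, with 3163 bp and Kcnc4 with 3024 bp. All 4 Kcnc genes had summits, with a median span of 2483.5 bp. The highest summits, at Kcnh6, Kcnab2 and Kcnj2, lay in regions of 848, 797 and 1090 bp. Those of Kcnh6 and Kcnab2 lie at the starts of neighbouring genes. The widest regions, at Kcnn2 and Kcna2, had levels of 86.7 and 92.7, above the member median of 62.6. Across the 73 members, span and level had a Spearman rho of 0.526, which describes genes and not replicates.

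**Figure D2:**
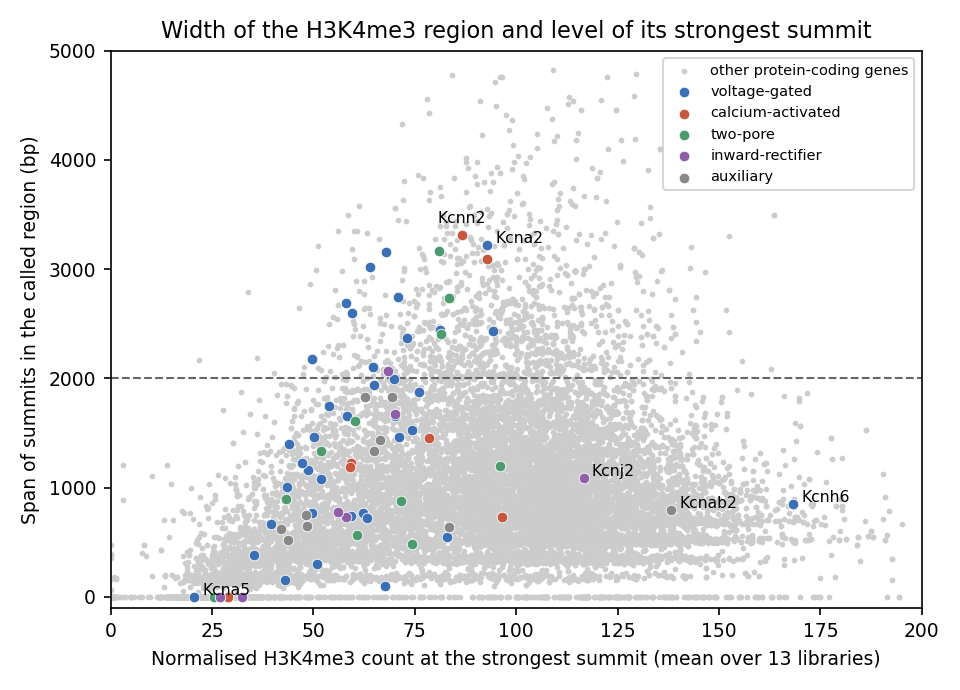
Span of the summits in the called region (vertical axis, bp) against the normalised count at the strongest summit (horizontal axis, mean over 13 libraries); coloured points are potassium channel genes by family, grey points are other coding genes (17 of 15171 lie outside the axes), and the dashed line marks 2 kb. Members lie to the left of most grey points, and 17 of them lie above the dashed line.

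Over the 64 members with a given start, the promoter window held a median of 12 CG dinucleotides in 300 bases, and over the first given start of 17491 coding genes, with or without a summit, it held 13. Members with a summit were read at the given start nearest to it, and members without one at the first given start. The windows compared here were thus not chosen alike. Within the members, the 42 with their strongest summit within 2 kb of the start used had a median of 19 (range 3 to 49), the 8 with it elsewhere had 16, and the 14 without any summit had 4.5 (range 0 to 12). Kcng3, a modifier subunit, had the most with 49, followed by Kcnmb4 with 48 and Kcnj4 and Kcnc1 with 41 each. Within the 42 marked genes the CG count and the level had a Spearman rho of 0.249, and the CG count and the span 0.315, given as descriptions. The GC box GGGCGG, searched on both strands, was found in 36 of the 64 windows (56.2%), against 46.3% of coding genes. Those 36 include 28 of the 42 with a summit at the start and 3 of the 14 without any. The TATA box TATAAA was found in 2 of the 64, both without a summit, against 13.3% of coding genes. Of 3 further motifs searched in all 64 windows, CACGTG was found in 6, CAGCACC in 6 and TGACGTCA in 0, against 7.90%, 7.14% and 2.34% of coding genes. No motif searched contains another.

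**Figure D3:**
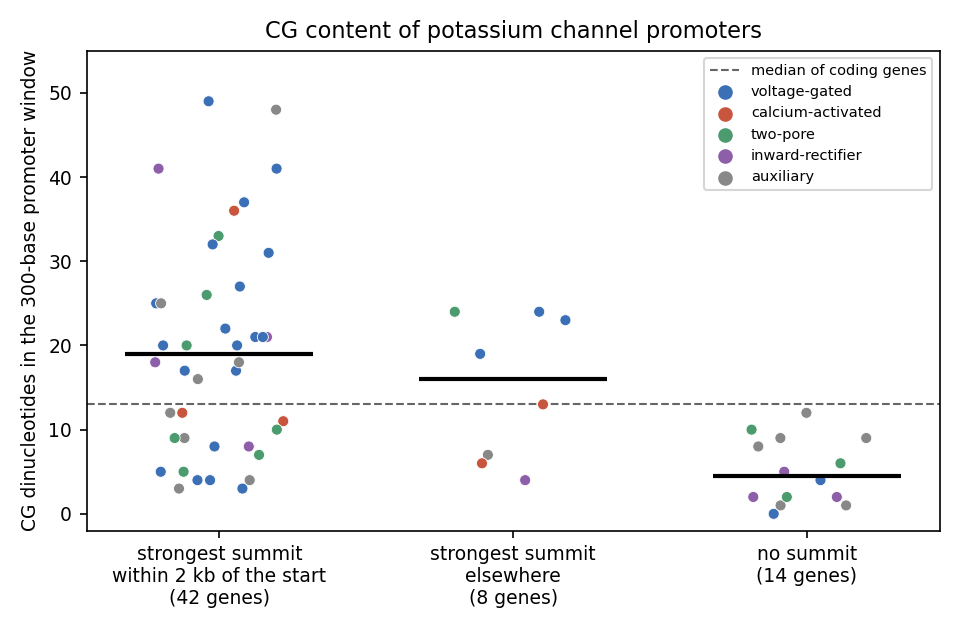
CG dinucleotides in the 300-base promoter window (vertical axis) of 64 potassium channel genes, by where their strongest H3K4me3 summit lies; points are genes coloured by family, bars are medians, and the dashed line is the median of 13 over coding genes with or without a summit. The 14 genes without a summit all lie at 12 or fewer.

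Depth and library quality bear on all that follows. Between 4512817 reads (SDS10 replicate 4) and 10887911 reads (control replicate 1) fell on summits, and at the strongest member summits this gave 90 to 249 reads per library for Kcnh6 and 6 to 47 for Kcna5. The labels number the libraries but do not tie them to single animals, so p-values measure the spread between libraries, which may be partly technical, and all libraries carry 1 batch date. SDS30 replicate 2 and SDS10 replicate 2 correlated least with the other libraries (median r of 0.767 and 0.791, against up to 0.864). Markers of excitatory neurons had a summit in 5 of 5 genes, with summed levels of 252 to 371 in SDS10, 224.9 to 320.3 in SDS30 and 249 to 297 in control, and astrocyte markers in 5 of 5. Microglial markers had one in 3 of 5, with sums of 56.5 to 87.0, 58.7 to 90.6 and 46.9 to 54.5 in SDS10, SDS30 and control, Cx3cr1 and Csf1r having none. Mog, Mobp, Sst and Vip had none either. Taken singly, the microglial markers C1qa and P2ry12 overlapped in every comparison. Tmem119 overlapped in all but SDS30 against control, with 18.9 to 27.4 in SDS30 and 15.6 to 18.3 in control. Inhibitory neuron markers had a summit in 4 of 6 genes. Their sums were 97.4 to 136 in SDS10, 128 to 169 in SDS30 and 121 to 148 in control. Of these, Pvalb had 36.7 to 40.7, 54.7 to 71.9 and 48.1 to 53.8, without overlap in any comparison. Gad1, Gad2 and Slc32a1 overlapped in all of them. In the same order, oligodendrocyte sums were 80.5 to 136, 95.7 to 123 and 96.3 to 123. Endothelial sums were 152 to 208, 125 to 215 and 127 to 227. Of 5 markers of tissues not dissected, Alb, Myh1 and Ins2 had none, Apoa2 had 72.7 at a summit shared with Tomm40l, and Ckm had 66.2. The part of these differences in the results below was not tested.

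The family levels varied more between libraries of 1 group than between groups. The median over all members was 61.5, 79.0, 59.3, 59.3 and 54.5 in the SDS10 libraries, 63.4, 54.7, 57.8, 54.8 and 73.2 in the SDS30 libraries and 57.3, 72.1 and 66.5 in the control libraries. Replicate 2 of SDS10, replicate 5 of SDS30 and replicate 2 of control were the highest of their groups, and the groups overlapped. The median over all coding genes moved less, from 93.2 to 107 in SDS10, from 82.8 to 94.9 in SDS30 and from 96.3 to 97.8 in control. For that median every SDS30 library lay below every control library. As a share of that median in the same library, members averaged 63.8 ± 6.04% in SDS10, 66.3 ± 7.01% in SDS30 (SD, n = 5 each) and 67.2 ± 7.92% in control (SD, n = 3). Every family median lay below the median of all coding genes in 13 of 13 libraries. The calcium-activated median was above the voltage-gated one in 11 of 13 libraries and above the inward-rectifier one in 12 of 13, whereas the two-pore median was above the voltage-gated one in 8 of 13.

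**Figure D4:**
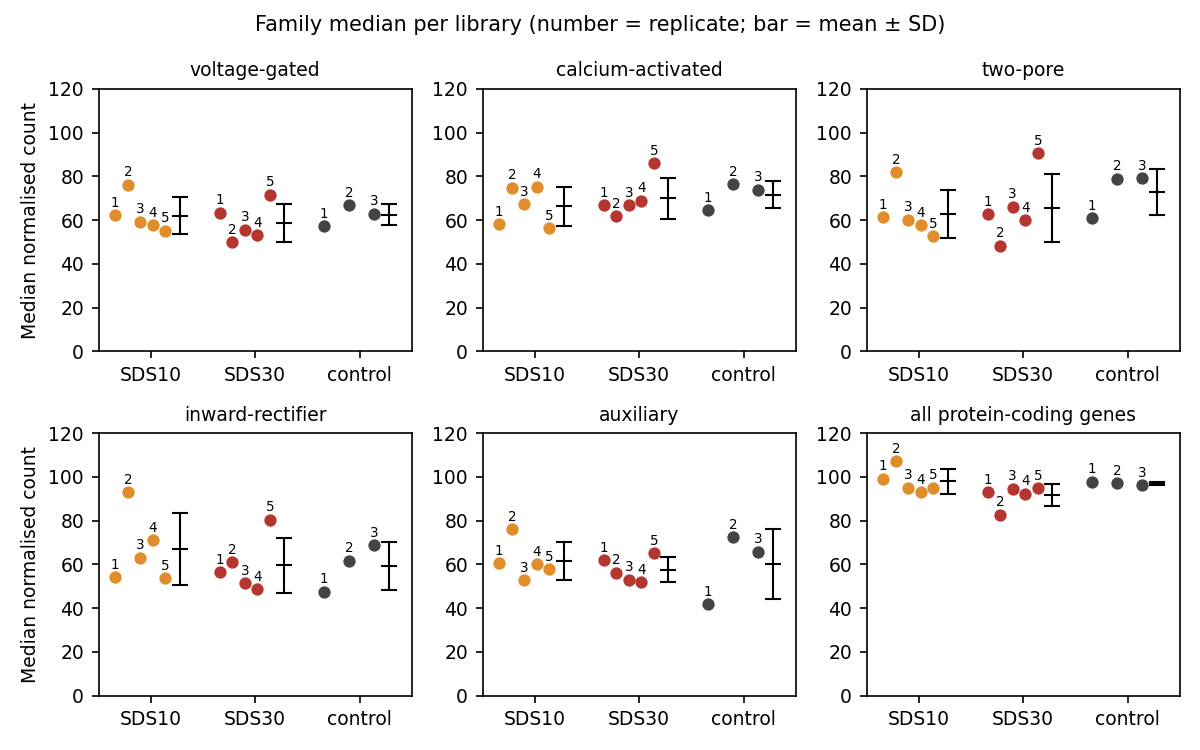
Median normalised H3K4me3 count over the members of each family (vertical axis) in each library of the SDS10, SDS30 and control groups; points are libraries with their replicate number, and the bars beside them are the mean ± SD. Replicate 2 of SDS10 and replicate 5 of SDS30 lie high in most potassium channel panels, and the groups overlap in every family panel. In the last panel, all protein-coding genes, every SDS30 library (82.8 to 94.9) lies below every control library (96.3 to 97.8).

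After 10 days of defeat, no potassium channel gene had a strongest summit that passed the threshold. The limma test, adjusted by Benjamini-Hochberg over 152270 summits with a threshold of 0.05, called 0 of 73 members and 0.0% of all summits in SDS10 against control, and edgeR and DESeq2 also called 0. At an unadjusted p under 0.05 there were 0 members, against 1.78% of coding genes higher and 1.03% lower (4891 of all summits with limma, 4599 with edgeR and 5410 with DESeq2). The median log2 fold change of the members was -0.02, against 0.01 for coding genes, and 31 of 73 had a positive value (42.5%, against 53.3% of coding genes). The 95% interval of a member's log2 fold change reached 0.45 to either side in the median, and for all 73 it stayed between -1 and 1.

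By family, the median log2 fold change in SDS10 against control was 0.01 in voltage-gated, -0.07 in calcium-activated, -0.16 in two-pore and -0.02 in inward-rectifier genes, and 0.03 in auxiliary genes. Of the 11 two-pore genes 10 had a negative value, with Kcnk9 the exception at 0.32 ± 0.32 (SE). These values shared their control libraries. Without control replicate 2 the two-pore median was -0.04 with 7 of 11 negative, and without control replicate 1 it was -0.26 with 11 of 11 negative.

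Members with small p-values in SDS10 against control show the size of the spread. Kcnab1 had 78.7, 80.5, 49.9, 69.5 and 78.9 in SDS10 and 37.0, 66.9 and 69.9 in control (log2 fold change 0.33 ± 0.22, SE, limma adjusted p = 0.9999), and its fold change was 0.04 without control replicate 1. Kcns3, a modifier subunit, had 0.29 ± 0.23. On the other side, Kcng1, another modifier, had 63.2, 60.7, 36.7, 32.2 and 39.0 in SDS10 and 55.9, 58.2 and 56.2 in control. The SDS10 libraries fell on both sides of the tight control values (-0.34 ± 0.26). Kcnh5, an ether-a-go-go channel, had -0.27 ± 0.19 and Kcnn3, a small-conductance channel, had -0.25 ± 0.19.

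Kcnmb4 was the 1 member of 73 whose SDS10 and control libraries did not overlap. It had 65.6, 69.2, 60.2, 69.5 and 64.2 in SDS10 and 72.0, 78.2 and 83.7 in control. All SDS10 values were lower (log2 fold change -0.24 ± 0.19, SE, limma adjusted p = 0.9999). Groups that do not overlap were seen in 1.65% of coding genes in the higher direction and 1.22% in the lower.

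After 30 days, 0 of 73 members were called against control (limma, adjusted p), as were 0.0% of all summits, and edgeR and DESeq2 again called 0. At an unadjusted p under 0.05, 2 members were lower, Kcnd3 and Kcnj12, and 0 higher, against 4.41% of coding genes lower and 0.5% higher (5194 of all summits with limma, 4933 with edgeR and 5752 with DESeq2). No member had SDS30 and control libraries that did not overlap, against 0.586% of coding genes higher and 3.11% lower. The median log2 fold change was -0.07 in members and -0.07 in coding genes, and 57 of 73 members had a negative value (21.9% positive, against 34.1% of coding genes). Without control replicate 2, 33 of 73 were negative and the member median was 0.01, and with loess offsets 44 of 73 were negative.

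Kcnd3, which carries the A-type current with Kcnd2, had 64.2, 48.4, 68.4, 41.9 and 87.7 in SDS30 and 73.4, 82.5 and 94.0 in control. It was lower in 4 of 5 SDS30 libraries than in every control library, and replicate 5 lay inside the control range (-0.46 ± 0.22, limma adjusted p = 1). Kcnj12 had 66.6, 45.3, 44.2, 55.6 and 82.6 in SDS30 and 65.0, 92.1 and 76.8 in control (-0.43 ± 0.21, limma adjusted p = 1). Again 3 of the SDS30 libraries lay below all controls and replicates 1 and 5 did not. This summit of Kcnj12 lies away from its given start. Kcnk5 had 90.8, 95.3, 68.4, 90.7 and 90.6 in SDS30 and 116, 114 and 92.8 in control (-0.30 ± 0.16). With edgeR on the recovered reads no member had an unadjusted p under 0.05 in this comparison.

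Higher values after 30 days were again small. Kcnj2 had 0.15 ± 0.14 and Kcnk9 had 0.31 ± 0.32. Both were also above control in SDS10, at 0.16 and 0.32, but both comparisons use the same 3 control libraries. The family medians were -0.12 in voltage-gated (30 of 37 negative), -0.06 in calcium-activated (6 of 8), -0.15 in two-pore (9 of 11) and -0.05 in auxiliary genes (9 of 10), and 0.14 in inward-rectifier genes (3 of 7 negative). Without control replicate 2 they were 0.00, 0.05, 0.01 and 0.07, with 18, 3, 5 and 4 members negative, and the inward-rectifier median was -0.07 without control replicate 1.

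**Figure D5:**
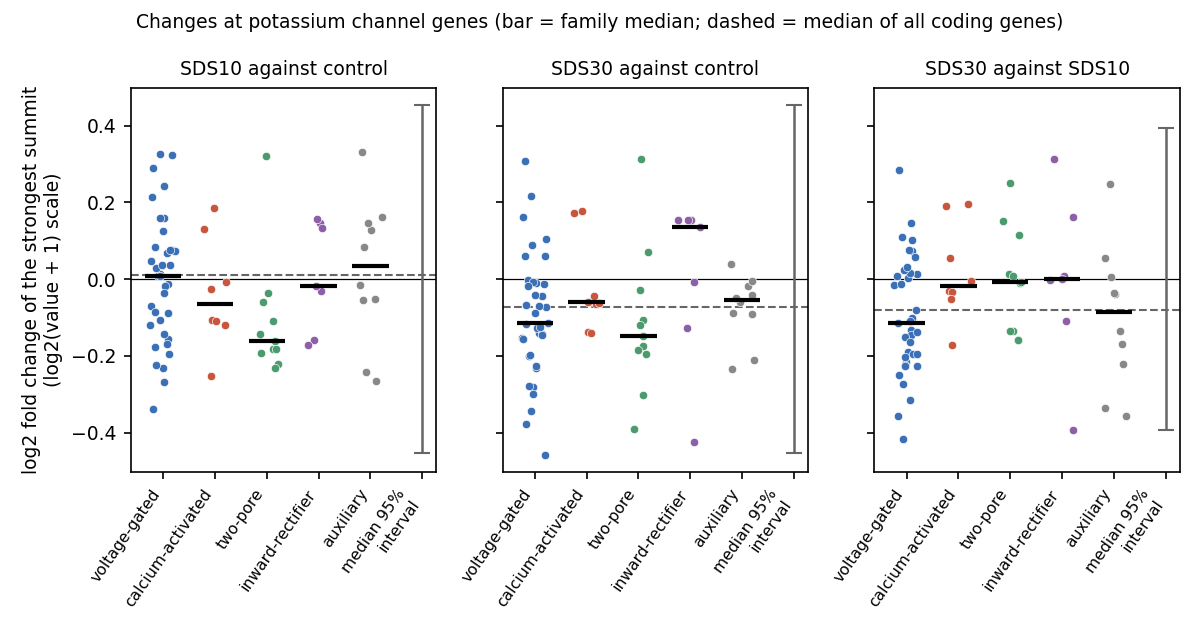
Log2 fold change of the strongest summit of each potassium channel gene (vertical axis, log2(value + 1) scale) by family in the 3 comparisons; points are genes, short bars are family medians, the dashed line is the median of all coding genes, and the grey bar at the right is the median 95% interval of a single gene (0.45 to either side against control, 0.39 between the stressed groups). Nearly all points lie inside the length of that interval.

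Between the stressed groups, SDS30 against SDS10, 0 of 73 members and 0.0% of summits were called by limma, and 0 summits by edgeR and DESeq2. At an unadjusted p under 0.05, 1 member was lower and 0 higher, against 9.03% of coding genes lower and 0.704% higher (7795 of all summits with limma, 6838 with edgeR and 7796 with DESeq2). No member's groups were free of overlap, against 0.112% of coding genes higher and 1.01% lower. The median log2 fold change was -0.04 in members and -0.08 in coding genes, and 38.4% of members and 31.7% of coding genes had a positive value. The single gene was Kcnj12, with 66.6, 45.3, 44.2, 55.6 and 82.6 in SDS30 and 78.7, 100.2, 70.6, 71.1 and 61.8 in SDS10. In SDS30 3 libraries lay below every SDS10 library, and the other 2 overlapped with them (-0.39 ± 0.18, limma adjusted p = 0.963). Kcnh6 had 158 ± 15.8 in SDS30 and 180.2 ± 7.32 in SDS10 (SD, n = 5 each, -0.20 ± 0.10), at the summit it shares with Dcaf7, and Kcnab1 had 56.6 ± 11.9 and 71.5 ± 12.8 (-0.34 ± 0.19). In the other direction, Kcnip3 had 0.25 ± 0.18 and Kcnn3 had 0.19 ± 0.16.

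Spread within a stressed group was largest at a few members. In SDS10 the coefficient of variation was highest for Kcnb2, a delayed rectifier, at 56.0%, with 65.6, 119.985, 42.4, 40.7 and 39.0, and for Kcnk9 at 43.4%. In both genes replicate 2 was the highest. In SDS30 it was highest for Kcnj16 at 58.1%, with 20.4, 59.4, 26.3, 18.8 and 21.7, and for Kcna5 at 54.1%, with 10.2, 9.37, 29.4, 19.7 and 34.1. Over the members the median coefficient of variation was 21.4% in SDS10, 24.3% in SDS30 and 19.8% in control, against 16.4%, 16.3% and 12.6% over coding genes.

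The strongest summit is 1 of several at most members, so all 1005 tested summits inside or within 2 kb of members were also read from the fit. None was called in any comparison (limma adjusted p). At an unadjusted p under 0.05, 11 were higher and 8 lower in SDS10 against control, 11 and 13 in SDS30 against control, and 18 and 11 in SDS30 against SDS10. These are 1.09% and 0.796%, 1.09% and 1.29%, and 1.79% and 1.09% of the member summits, against 1.99% and 1.22%, 1.44% and 1.97%, and 2.01% and 3.11% of all summits. A secondary summit of Kcnd3 (chr3:105451113-105451114) had 34.5, 32.5, 28.2, 23.7 and 26.8 in SDS10, 47.8, 46.9, 35.8, 39.4 and 52.9 in SDS30 and 61.5, 42.6 and 52.7 in control. The SDS10 libraries lay below all others (-0.82 ± 0.24 against control, limma adjusted p = 0.9999). A secondary summit of Kcnj2 (chr11:111066733-111066734) had 77.1, 60.7, 71.5, 79.6 and 69.9 in SDS10, 72.0, 59.4, 71.5, 76.1 and 91.3 in SDS30 and 54.5, 53.9 and 51.6 in control. Every stressed library lay above every control library. The summed microglial markers did so too, but no single microglial marker did, and their part was not tested. The log2 fold change was 0.42 ± 0.18 in SDS10 (SE, limma adjusted p = 0.9999) and 0.45 ± 0.18 in SDS30, against the same controls. A secondary summit of Kcnn3 (chr3:89521992-89521993) had 54.8, 56.2, 43.1, 50.5 and 59.4 in SDS30 and 27.9, 32.5, 43.3, 27.1 and 31.7 in SDS10. The groups touched at SDS30 replicate 3 and SDS10 replicate 3 (0.70 ± 0.21, limma adjusted p = 0.963). A secondary summit of Kcnh3, an ether-a-go-go-like channel of forebrain, had 26.2, 36.7, 25.4, 20.3 and 24.4 in SDS10 and 39.8, 53.0 and 52.7 in control. All SDS10 values were lower (-0.86 ± 0.27, limma adjusted p = 0.9999). These 4 summits were picked for their small p-values. How often groups do not overlap was not counted over all summits. At the strongest summits of coding genes it was 1.65% higher and 1.22% lower in SDS10 against control. It was 0.586% higher in SDS30 against control and 0.112% higher in SDS30 against SDS10.

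Genes of potassium channel complexes and related channels were set beside the members. Of 35 such genes 34 had a summit, with a median level of 71.3, and 0 were called in any comparison. In SDS10 against control 17 of 34 were higher and 17 lower, in SDS30 against control 13 and 21, and in SDS30 against SDS10 13 and 21. Sestd1, from the list of interactors, had 107, 129.9, 101, 103 and 91.1 in SDS10 and 74.1, 93.8 and 83.7 in control. Only replicate 5 of SDS10 lay inside the control range (0.34 ± 0.16, limma adjusted p = 0.9999), and SDS30 against SDS10 was -0.29 ± 0.14. Lrrc38, a gamma subunit of the Kcnma1 channel, had 45.1, 40.9, 37.7, 22.02 and 35.8 in SDS10 and 52.4, 44.3 and 57.3 in control (-0.52 ± 0.25), and the groups overlapped. Neto1, a kainate receptor partner, had 0.37 ± 0.22 in SDS10 against control and Tmem38b, a potassium-permeable channel of the endoplasmic reticulum, had -0.26 ± 0.17.

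In SDS30 against control the partner with the smallest p among the higher ones was Dlg4, the postsynaptic scaffold, with 106, 114, 108, 117 and 117 in SDS30 and 105, 90.3 and 97.4 in control. The groups did not overlap (0.20 ± 0.14, limma adjusted p = 1), at a summit that Dlg4 shares with Acadvl. Groups apart in that direction were seen in 0.586% of coding genes. Atp1b2, the sodium pump beta subunit of glia, had 0.19 ± 0.16. Hcn3, a hyperpolarisation-activated channel, had -0.39 ± 0.21 and Slc12a5, the neuronal chloride exporter, had -0.33 ± 0.22. In SDS30 against SDS10, Dpp10, which joins Kcnd channels, had -0.43 ± 0.21, while Lrrc38 had 0.21 ± 0.21.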

How the data were processed

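The 13 H3K4me3 libraries were grouped by the labels: SDS10 (5), SDS30 (5) and control (3). The input library was not analysed here. Per the labels' protocols, chromatin was digested with micrococcal nuclease and sequenced as single reads. The submitters' processing notes name the builds mm10 and GRCm38.p5 and the tools MACS2, Bowtie2, DESeq2 and Trimmomatic, without their settings. The deposited table gives a normalised signal per library for 153207 summits. The values were whole multiples of 1 step per library (100% within 0.001), from which reads were recovered. Peak scores in the deposited table entered no test. The treatment of duplicates is not given in those notes. Neighbouring summits are a median of 199 bp apart and can share reads.

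Because the values are normalised, limma (3.58.1, R 4.3.3) with a variance trend was run on log2(value + 1) over all 13 libraries. Low summits were removed with filterByExpr of edgeR (152270 tested, 937 not), and all 73 members with a summit passed. Fold changes on this scale understate changes of low summits. edgeR (4.0.16) and DESeq2 (1.42.0) on the recovered reads were alternatives. The limma and edgeR steps were also run on simulated counts for SDS10 against control, and the DESeq2 step was not. Genes came from RefSeq (GRCm38.p6), which gives boundaries without strand; starts and strands came from a RefSeq promoter table covering 64 of 89 members. Values are per summit, not per gene length.

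The members, families, gene lists and named genes were chosen with earlier results of these data known, so lists are described by counts and medians with no test of their own. Named were the 3 highest and 2 lowest members per family, the 3 smallest p-values per direction and comparison, the 2 largest coefficients of variation per stressed group, shared and missing summits, 15 fixed genes and the 2 partners with the smallest p per direction; other members were named after their values were seen. Some genes that this rule picks are not reported here.

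Depth is given as reads on summits; with no molecular identifiers, PCR copies cannot be told from separate molecules.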

Additional observations from a re-analysis of the deposited data

Results flagged for a closer look

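Within groups of 5 libraries, the most extreme library was compared with the rest for 102 sets of values, and 7 stood far from the others. Chance alone would mark about 1 in 20. SDS10 replicate 2 was the outlying library in 3 of them. It had 115.7 at the Kcnab2 summit, against 150.4 to 162.6 in the other SDS10 libraries, 103 at Kcnip2, against 55.54 to 64.8, and a median over all members of 79.05, against 54.48 to 61.52. SDS30 replicate 3 was low at Kcnk5, with 68.36 against 90.58 to 95.28, and at Kcnma1, with 66.26 against 92.16 to 97.88. Kcnj16 had 59.36 in SDS30 replicate 2, against 18.82 to 26.29, and Kcnk15 had 39.13 in SDS30 replicate 5, against 24.19 to 26.52.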

How the results depend on the processing

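The count of called summits and of called members stayed at 0 in all 3 comparisons under every alternative run: another pseudocount, no filter, TMM scaling, loess offsets, edgeR, DESeq2, only the groups compared, a depth covariate, a replicate block, other gene windows and leaving out each library. Without 1 library, the member median ran from -0.142 to 0.046 in SDS10 against control, from -0.217 to 0.00839 in SDS30 against control and from -0.136 to 0.000858 in SDS30 against SDS10. It turned positive without control replicate 2 in both comparisons with control and without SDS10 replicate 2 in the third. Deviations of same-numbered libraries correlated at -0.2874 to 0.3677, and those of differently numbered libraries at -0.426 to 0.3816. These ranges show no pairing by number but cannot exclude one. With the replicate block the medians were -0.00914, -0.0804 and -0.0368. Family levels without 1 library ran from 60.0 to 63.7 (voltage-gated), 67.3 to 70.2 (calcium-activated), 68.8 to 73.4 (two-pore), 56.6 to 59.3 (inward-rectifier) and 62.2 to 65.5 (auxiliary). The calcium-activated level was 59.1 with summits near gene boundaries only. Summed over all summits of a gene, which scales with how many were called, the levels were 571, 625, 456, 402 and 494 in the same order of families. Of 135 gene comparisons named, 75 changed sign under some alternative, and none was called. Counts of members with negative values without each library, with TMM and with loess offsets were chosen after seeing the data.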
